A study of Mus musculus with 10 samples.

Results

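In the chromatin of mouse Th17 cells, 3678 of 39655 nuclear open-chromatin sites (9.27%) had a lower signal with acetate in both genotypes. They were chosen by a rule on the values themselves. Each library was divided by its own median over sites, and a site was kept when the highest of the 4 acetate values lay below the lowest of the 6 untreated values. The difference between acetate and untreated cells at these sites is therefore a description, and no test is given for it. The same rule turned round, with every acetate value above every untreated value, held at 3207 sites (8.09%).

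The cells were naive CD4+ T cells cultured for 3 days with anti-CD3, anti-CD28, IL-6, TGFβ and anti-IFNγ, which drives them toward Th17 cells. KO cells came from PDHfl/fl mice (PHD-fl/fl in the sample titles) with CD4 Cre, which removes floxed pyruvate dehydrogenase from cells of the CD4-expressing T cell lineage, and WT cells came from PDHfl/fl mice without Cre, so both carried the floxed alleles. The groups were KO with 10 mM sodium acetate (n = 2 libraries), WT with 10 mM sodium acetate (n = 2), KO untreated (n = 3) and WT untreated (n = 3). The labels do not say that replicates came from separate animals, so p-values measure only the spread between these libraries. ATAC-seq signal does not test the deletion, and the labelled genotypes were taken as given.

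Pyruvate dehydrogenase turns pyruvate into acetyl-CoA inside mitochondria. Acetyl-CoA feeds the citrate of the TCA cycle, and in the nucleus it is the donor for histone acetylation, a mark of open chromatin. Acetate is a second source of acetyl-CoA through acetyl-CoA synthetases. ATAC-seq cuts DNA where it is accessible to a transposase, so its signal at a site follows how open that site is over the population. In bulk cells, fewer cells with an open site and less opening per cell cannot be told apart.

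Values are given as scaled signal. The authors divided each library's reads per site by a single factor, and these values were further scaled here so that the median site of every library was at 142. The libraries held 3500172 to 13356560 reads in sites, and the median member had 50 to 239 reads. Column names carried a prefix, ATAC1 for all 3 KO untreated libraries and WT untreated 1 and 2, and ATAC2 for WT untreated 4 and all 4 acetate libraries. In KO, acetate and prefix cannot be told apart. In WT, 1 untreated library shares the acetate libraries' prefix.

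The table itself was a selected one. As deposited, 24 of 39657 sites had a KO minus WT difference in untreated cells between -0.3 and 0.3 on the log2 scale, with 35946 below and 3687 above. On the scaled values 0 sites lay between 0.6 and 0.9, while 3691 lay at 0.9 or above. Sites that differ little between untreated genotypes as deposited are thus nearly missing, and open sites beyond the table were not used here. Counts and p-values of genotype differences in untreated cells are not independent of that selection.

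Where a member site overlapped a promoter, part of the sequence of the site can be shown. In all, 318 member sites overlapped at least 1 of 32851 RefSeq promoter windows (GRCm38.p6, 250 bases before to 50 after a gene's start), 375 windows in all. Only the 250 bases before the start are printed. The first set holds the 4 of highest mean signal among members at a gene end with such a window, with the bases inside the member site in capitals. Acetate differences at these 4 were -0.65 to -0.47 in KO and -0.32 to -0.21 in WT (log2, scaled signal). As deposited, the median KO difference over all members was 0.01. Lmbr1l (chr15:98918099-98918348, minus strand) encodes a membrane protein that limits Wnt signalling in lymphocytes. Pip5k1c (chr10:81292713-81292962, plus strand) encodes a kinase that makes the membrane lipid PIP2. H2az2 (chr11:6444444-6444693, minus strand) encodes a histone H2A.Z variant, and Ddx24 (chr12:103425848-103426097, minus strand) a DEAD-box RNA helicase.
Lmbr1l: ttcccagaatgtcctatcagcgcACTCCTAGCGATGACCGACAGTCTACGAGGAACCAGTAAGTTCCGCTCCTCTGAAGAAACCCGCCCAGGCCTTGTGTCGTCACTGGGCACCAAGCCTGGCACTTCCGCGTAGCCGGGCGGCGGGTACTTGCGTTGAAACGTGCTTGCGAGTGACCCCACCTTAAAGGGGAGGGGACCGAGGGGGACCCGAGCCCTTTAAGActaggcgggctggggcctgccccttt
Pip5k1c: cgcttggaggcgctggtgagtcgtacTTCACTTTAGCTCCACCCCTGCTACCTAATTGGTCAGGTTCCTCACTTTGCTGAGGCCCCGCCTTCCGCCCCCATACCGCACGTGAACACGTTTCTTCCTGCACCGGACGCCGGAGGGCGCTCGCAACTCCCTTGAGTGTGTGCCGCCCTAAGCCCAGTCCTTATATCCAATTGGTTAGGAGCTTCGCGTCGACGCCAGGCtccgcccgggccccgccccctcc
H2az2: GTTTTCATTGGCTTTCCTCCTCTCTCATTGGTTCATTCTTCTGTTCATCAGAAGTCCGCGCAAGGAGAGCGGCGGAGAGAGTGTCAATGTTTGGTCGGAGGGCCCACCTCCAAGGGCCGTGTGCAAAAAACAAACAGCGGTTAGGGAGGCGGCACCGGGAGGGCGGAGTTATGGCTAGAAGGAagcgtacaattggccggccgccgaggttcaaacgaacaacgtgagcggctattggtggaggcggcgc
Ddx24: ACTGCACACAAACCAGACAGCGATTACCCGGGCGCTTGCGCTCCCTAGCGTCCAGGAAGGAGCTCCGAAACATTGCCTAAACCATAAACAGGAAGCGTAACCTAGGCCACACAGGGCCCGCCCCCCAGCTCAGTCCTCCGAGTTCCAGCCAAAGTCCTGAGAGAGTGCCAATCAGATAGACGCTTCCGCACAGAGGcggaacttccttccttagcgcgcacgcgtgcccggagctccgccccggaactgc

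The second set was chosen after the values were seen, because it holds 4 interferon-inducible GTPase genes whose promoter has the core of an interferon-stimulated response element (ISRE) inside a member site. Capitals mark the ISRE letters GAAANNGAAA on either strand. Igtp (chr11:58199306-58199555, plus strand), Irgm2 (chr11:58214727-58214976, plus strand) and Gm12250 (chr11:58183593-58183842, plus strand) encode immunity-related GTPases, which act against intracellular pathogens. Gbp5 (chr3:142496684-142496933, plus strand) encodes a guanylate-binding protein that promotes inflammasome assembly. The Igtp and Irgm2 windows share a run of 55 identical bases, so reads in that run may be hard to place between the 2 genes. The run lies before the part of each window that its member site covers. Read placement inside the sites was not tested.
Igtp: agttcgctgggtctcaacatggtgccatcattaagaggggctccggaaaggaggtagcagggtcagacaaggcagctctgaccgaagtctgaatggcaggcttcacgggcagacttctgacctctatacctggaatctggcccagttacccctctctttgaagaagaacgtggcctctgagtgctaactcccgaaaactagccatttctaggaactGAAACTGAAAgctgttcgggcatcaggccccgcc
Irgm2: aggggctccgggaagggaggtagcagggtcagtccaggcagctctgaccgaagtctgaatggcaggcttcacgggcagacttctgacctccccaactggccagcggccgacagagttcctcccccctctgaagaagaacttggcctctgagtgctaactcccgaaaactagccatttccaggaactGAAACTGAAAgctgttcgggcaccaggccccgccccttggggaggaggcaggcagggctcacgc
Gm12250: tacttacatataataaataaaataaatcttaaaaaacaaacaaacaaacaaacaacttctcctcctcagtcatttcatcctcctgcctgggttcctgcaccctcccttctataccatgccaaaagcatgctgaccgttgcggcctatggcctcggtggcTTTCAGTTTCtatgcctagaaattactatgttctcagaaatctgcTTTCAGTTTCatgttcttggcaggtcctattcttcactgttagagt
Gbp5: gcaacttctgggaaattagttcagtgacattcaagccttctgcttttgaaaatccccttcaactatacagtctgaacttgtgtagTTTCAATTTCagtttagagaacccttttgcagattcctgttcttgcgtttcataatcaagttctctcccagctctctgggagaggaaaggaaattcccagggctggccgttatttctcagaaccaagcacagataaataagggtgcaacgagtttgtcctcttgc

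The member sites sat together in every acetate library and apart from every untreated one, as the rule requires. The median member had a scaled signal of 125 and 129 in the KO acetate libraries and 124 and 130 in the WT acetate libraries. It had 204, 198 and 199 in KO untreated and 202, 199 and 180 in WT untreated. The median log2 difference between acetate and untreated cells was -0.58 in KO and -0.56 in WT (0.667-fold and 0.680-fold), beside 0.01 in KO and -0.03 in WT over all sites.

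For most members the groups were only just apart. The lowest untreated value exceeded the highest acetate value by a median of 1.11-fold, with quartiles of 1.05 and 1.22. The gap was at least 1.2-fold at 1022 members, at least 1.5-fold at 201 and at least 2-fold at 15, and the widest was 2.44-fold. Just inside the rule lay a site near B3gnt2, whose highest acetate value and lowest untreated value were both 842 after rounding, and sites near Dgkh and Lypd3. Just outside lay sites near Nck2, Rnf41 and Nol10, and at the Nck2 site both values were 47.2.

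The direction in KO depended on the scaling. As deposited, the median member had 144 and 130 in KO acetate and 154 and 150 in WT acetate, against 131, 132 and 164 in KO untreated and 272, 219 and 207 in WT untreated. The KO libraries then overlapped, and the median KO difference at members was 0.01, beside 0.61 over all sites, with 1777 of 3678 members (48.3%) below 0. In WT the deposited median difference was -0.55 and all 3678 members stayed below 0. With cyclic loess and median-of-ratios factors the KO medians were -0.64 and -0.60, and with total signal -0.52. In KO, then, the members were lower relative to the other sites of the same library, while their median was not lower in deposited signal.

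**Figure D1:**
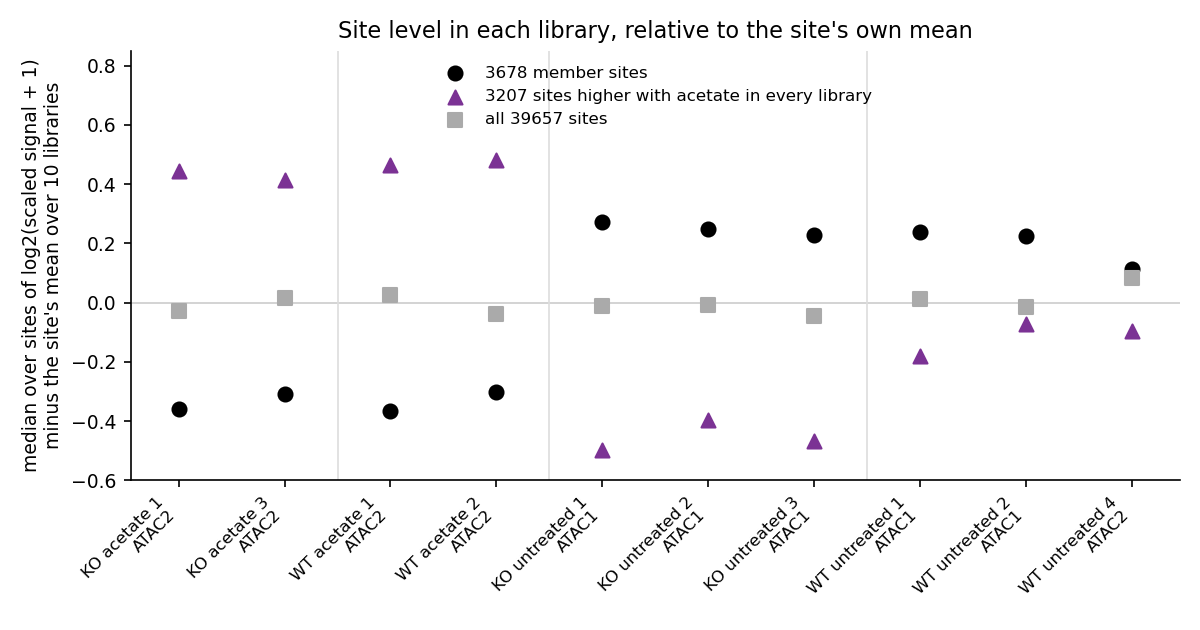
Median over sites of the log2 scaled signal minus each site's own mean over the 10 libraries (y axis), for each library (x axis, with its prefix), for members, for sites higher with acetate in every library, and for all sites. Members lie at -0.37 to -0.30 in the 4 acetate libraries and at 0.11 to 0.27 in the untreated ones, where WT untreated 4 is the lowest. As deposited the KO direction is lost (0.01).

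WT untreated 4, the untreated library with the acetate libraries' prefix, lay nearest to them. It was the lowest of the 6 untreated libraries at 1350 members (36.7%), while each other untreated library was lowest at 6.33 to 15.6%. When the rule used the other 9 libraries alone, 4898 sites passed, and 75.1% of them remained members once WT untreated 4 was added back. The same share was 80.7 to 97.5% for the other libraries left out in turn. At those 4898 sites the median WT acetate difference was -0.37 (0.773-fold) against WT untreated 4 and -0.58 (0.670-fold) against WT untreated 1 and 2, beside -0.11 (0.925-fold) and 0.01 (1.01-fold) over all sites. It was below WT untreated 4 at 4236 of the 4898 (86.5%), beside 59.0% of all sites. The choice of the 4898 had used the WT acetate values, which are low there by that choice, so these values are a description. The part of the prefix in the member differences was not tested.

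The strongest differences at sites of at least middling signal were of 2 kinds. Near Mkln1, which encodes the substrate receptor muskelin of a ubiquitin ligase, a site in the gene body (6:31489986-31490186) had 52.6 and 73.8 in KO acetate and 77.0 and 65.0 in WT acetate, against 252, 217 and 229 in KO untreated and 251, 278 and 187 in WT untreated. Near Ccm2, which encodes a scaffold of endothelial junctions, a gene-body site (11:6560984-6561184) had 97.1 and 73.8 in KO acetate and 62.1 and 71.7 in WT acetate, against 221, 202 and 216 in KO untreated and 290, 234 and 202 in WT untreated. A site 15975 bp from Srp9, a signal recognition particle subunit (1:182108562-182108762), averaged 149 ± 16.8 in KO acetate and 140 ± 15.6 in WT acetate (SD, n = 2 each), against 387 ± 42.2 in KO untreated and 399 ± 42.0 in WT untreated (SD, n = 3 each). A gene-body site of Pgpep1l, a putative pyroglutamyl peptidase gene, was alike, with log2 differences of -1.59 in KO and -1.34 in WT. At these 4 sites the 2 genotypes lay side by side in both conditions. Their differences stayed below 0 in both genotypes as deposited, with -1.28 in KO at Mkln1.

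At 4 other sites the untreated KO libraries stood far above the rest. A site 10082 bp from Zbtb34, a zinc finger gene (2:33395826-33396026), had 57.0 and 69.2 in KO acetate and 72.0 and 91.7 in WT acetate, against 446, 514 and 489 in KO untreated and 177, 223 and 101 in WT untreated. Sites at Cdkal1, a tRNA-modifying enzyme gene, Gbp8, a guanylate-binding protein gene, and Syne1, which encodes the nuclear envelope protein nesprin-1, had the same order. Their log2 differences between acetate and untreated cells were -2.37, -2.51 and -2.01 in KO, and -1.07, -0.74 and -0.85 in WT.

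**Figure D2:**
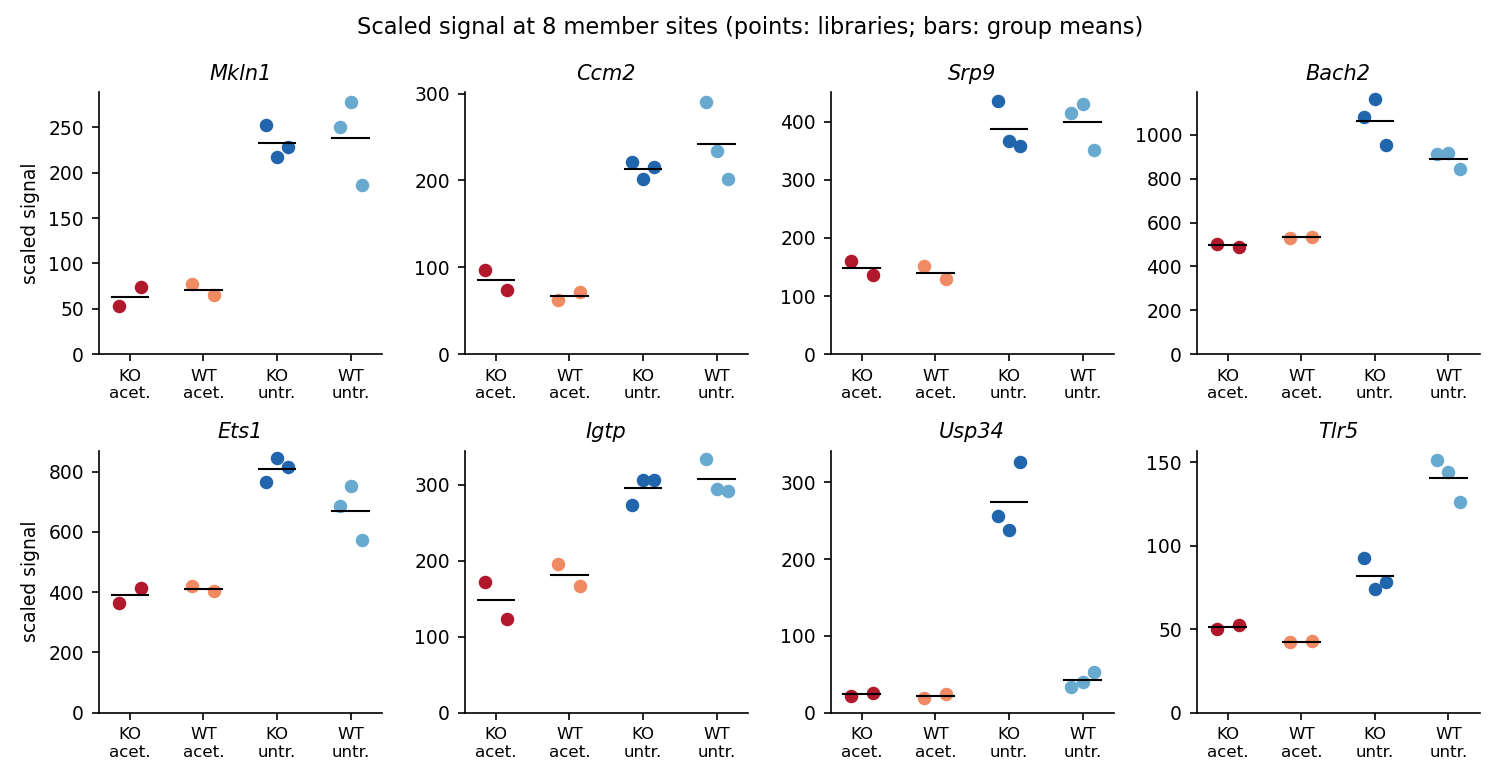
Scaled signal (y axis, linear from 0) at 8 member sites in the 4 groups, with 1 point per library and a bar at the group mean (n = 2 with acetate, n = 3 untreated). Acetate libraries are low at all 8, and Usp34 is high in untreated KO alone (273.6 ± 46.3 against 42.1 ± 9.97 in untreated WT). As deposited, KO acetate also averaged below KO untreated at these 8, by as little as 0.06 (log2) at Tlr5, while the KO median over members is 0.01.

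Genotype in untreated cells was tested with limma on the log2 scaled signal over all 39657 sites, with p-values adjusted by Benjamini-Hochberg and a site called below 0.05. Of the members, 148 (4.02%) were called higher in untreated KO than in untreated WT, beside 9.35% of all sites, and 13 (0.353%) were called lower, beside 4.72%. The median KO minus WT difference was 0.04 at members and -0.09 over all sites. The rule used the same untreated libraries and the table was selected on this contrast. These shares are therefore a description, as are the adjusted p-values given for single sites in untreated cells. As deposited, 130 members were called higher and 3435 (93.4%) lower, beside 9.07% and 89.6% of all sites, and with median-of-ratios factors 206 and 5, beside 9.63% and 3.34%. With the ATAC1 libraries alone, 246 members (6.69%) were called higher and 200 (5.44%) lower, beside 11.6% and 11.5% of all sites.

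The 148 members higher in untreated KO had a median difference of 1.76 (log2) over untreated WT. With acetate the same sites differed by a median of 0.10, with 100 of 148 above 0. Acetate lay below untreated cells by a median of -2.35 in KO and -0.77 in WT. They were weak sites, with a median mean signal of 60.2 against 162 over all members, and 10 of them (6.76%) lay at a gene end, beside 4.40% of all sites called higher. Of these sites, 134 lay above the empty stretch of the table, at differences of 1.18 or more, and the highest other member reached 0.51. At those 134 the KO acetate difference was below 0 at every site as deposited too, with a median of -1.81. The 134 were set apart by high untreated KO values, which the KO acetate difference subtracts. Its direction there follows in part from that choice, so it is a description. At the other 3544 members the medians were -0.57 in KO and -0.55 in WT on the scaled values.

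A gene-body site of Usp34, a deubiquitinase gene (11:23450712-23450912), had the smallest adjusted p. It had 22.2 and 25.6 in KO acetate and 19.9 and 24.3 in WT acetate, against 257, 238 and 326 in KO untreated and 33.3, 40.2 and 52.9 in WT untreated. All 3 untreated KO libraries lay above all 3 untreated WT libraries, and the difference was 2.68 ± 0.22 (log2, SE; limma adjusted p = 1.87e-06). A gene-body site of Mknk1, a kinase gene of the translation factor eIF4E (4:115866073-115866273), differed by 1.97 ± 0.17 (adjusted p = 2.66e-06). A site 12718 bp from Gbp8 (5:104999595-104999795) differed by 1.75 ± 0.16 (adjusted p = 3.03e-06), and one 26818 bp from Aadacl2fm2 by 1.68 ± 0.15 (adjusted p = 3.37e-06). A gene-body site of Ebf1, the B cell lineage factor, was also called (2.21 ± 0.30, adjusted p = 4.31e-05), with 10.4 and 10.5 in KO acetate and 9.93 and 9.72 in WT acetate, against 73.3, 93.9 and 107 in KO untreated and 24.0, 20.1 and 13.5 in WT untreated. The other 10 Ebf1 sites were not members.

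Of the 13 members lower in untreated KO, 4 had the smallest adjusted p. A site 12409 bp from Tlr5, the flagellin receptor gene (1:182988453-182988653), had 50.4 and 52.7 in KO acetate and 42.2 and 43.1 in WT acetate, against 92.9, 74.3 and 78.6 in KO untreated and 152, 144 and 126 in WT untreated. The genotype difference there was -0.77 ± 0.18 (limma adjusted p = 0.00452). A site 22108 bp from Emsy, a gene of a chromatin-associated protein (7:98564822-98565022), differed by -0.69 ± 0.16 (adjusted p = 0.00628), a call lost without WT untreated 1. A site in Map6, a microtubule-stabilizing protein gene, differed by -0.48 ± 0.14 (adjusted p = 0.0236), a call lost in 5 of 10 leave-one-out fits and with cyclic loess. A site on chromosome 18 with no gene within 50 kb (18:4278467-4278667) differed by -0.57 ± 0.13 (adjusted p = 0.00623). The number of members called lower was 2 to 102 when 1 library was left out, with the 102 reached without WT untreated 4.

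With acetate present, no genotype difference was called at any member. The limma test called 0 of 3678 members in either direction, beside 0.0227% of all sites called higher (9 sites) and 0 lower. At an unadjusted p below 0.05 there were 69 members (1.88%) and 863 sites of the table, and the lowest adjusted p among members was 0.999999. The median KO minus WT difference was -0.00 at members, with quartiles of -0.10 and 0.11. With 2 libraries a group, a miss does not show that the genotypes were alike. The rule held all 4 acetate values below the same untreated values, which also limits how far apart they can lie, so this count is a description too.

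**Figure D3:**
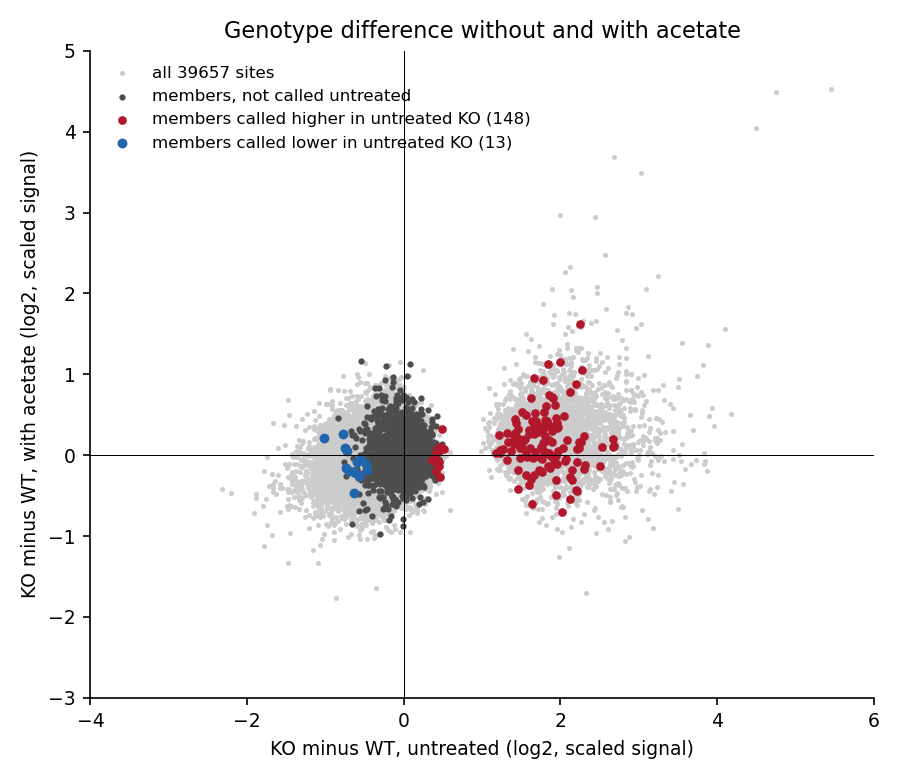
KO minus WT difference with acetate (y axis) against the same difference in untreated cells (x axis), both in log2 of scaled signal, 1 point per site, with all 39657 sites in grey and members in dark grey, or in red (148 called higher) and blue (13 called lower) for the untreated test. The red points spread from 0.36 to 2.68 along x around a median of 0.10 along y, and the stretch from 0.6 to 0.9 along x is empty. As deposited, 3435 members were called lower in untreated KO.

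The interaction asks whether the acetate difference itself differed between genotypes. It is made from the values the rule used and contains the untreated genotype contrast on which the table was selected, so its counts and p-values are a description of the members. It was called negative, more so in KO, at 106 members (2.88%, beside 6.33% of all sites), and 105 of these were among the 148 sites higher in untreated KO. The smallest adjusted p-values were at Gbp8 (-1.96 ± 0.25, limma adjusted p = 0.000847), Usp34 (-2.57 ± 0.35, adjusted p = 0.00129), Mknk1 (-1.91 ± 0.27, adjusted p = 0.00153) and Aadacl2fm2 (-1.69 ± 0.24, adjusted p = 0.00158). The other 1 was the promoter site of Gbp5 printed above. It had 156 and 184 in KO acetate and 258 and 251 in WT acetate, against 390, 387 and 403 in KO untreated and 335, 318 and 346 in WT untreated (interaction -0.82 ± 0.20, adjusted p = 0.0213).

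A positive interaction was called at 2 members (0.0544%, beside 0.27% of all sites). At the Tlr5 site described above the acetate difference was smaller in KO (-0.65) than in WT (-1.69), with an interaction of 1.04 ± 0.28 (limma adjusted p = 0.0319). With median-of-ratios, total signal or cyclic loess scaling 0 members were called positive, and beside 1.04 the Tlr5 value ranged from 0.85 to 1.07 over these 3. The Tlr5 call was also lost in 8 of 10 leave-one-out fits. As deposited, 272 members were called positive and 49 negative, beside 19.5% and 3.61% of all sites.

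Members lay at genes of every T cell programme examined, in shares of 4.62 to 11.7% of their sites. None of the members at listed genes was called for genotype in untreated cells but those at Ebf1 and Gbp8. Counts of members are read against the 9.27% of all nuclear sites, and those of the turned rule against 8.09%. Each site is named after its nearest gene, which it need not control. Around the genes of the Th17 programme 23 of 199 sites (11.6%) were members, in 11 of 22 genes, and 19 (9.55%) passed the turned rule. Of the genes that define Th17 cells, 3 named here had no member: 0 of 7 sites at Il17a and 0 of 4 at Il17f, the signature cytokines, and 0 of 7 at Il23r, the IL-23 receptor gene. At Il17a 2 sites went the other way by the rule. Members lay instead at Runx1, a transcription factor of T cells (5 of 25 sites), Tgfbr2, a TGFβ receptor (4 of 17), the IL-6 receptor chains Il6ra (2 of 11) and Il6st (2 of 10), Il21 (2 of 11), Hif1a (2 of 15) and Rora (2 of 30). A Runx1 gene-body site (16:92818568-92818768) had 500 and 551 in KO acetate and 529 and 540 in WT acetate, against 869, 873 and 840 in KO untreated and 732, 732 and 654 in WT untreated. Ccr6, the chemokine receptor of Th17 cells, had 1 member among 3 sites. As deposited, 13 of the 23 Th17 members were below 0 in KO and all 23 in WT.

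The naive and memory programme, factors and receptors of resting T cells, had 33 members among 281 sites (11.7%), in 12 of 14 genes. The turned rule held at 22 of its sites (7.83%). Bach2, a repressor that holds back effector differentiation, had 10 of 63 sites, Tcf7, a factor of naive and stem-like memory cells, 4 of 17, and the survival gene Bcl2 4 of 16. As deposited 12 of the 33 were below 0 in KO. T cell receptor and activation genes had 23 of 290 (7.93%), while 40 (13.8%) passed the turned rule. Among the genes with members were Prkcq, the protein kinase C of the T cell synapse, with 5 of 46, and Nfatc2 with 3 of 20. A gene-body site of Nfatc2 (2:168532512-168532712) had 333 and 250 in KO acetate and 320 and 330 in WT acetate, against 529, 538 and 507 in KO untreated and 564, 576 and 529 in WT untreated. The CD3 chain genes had 1 member among 8 sites at Cd3e and 2 among 4 at Cd3d, and Cd4 had 0 among 8.

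The regulatory T cell list had 10 members among 89 sites (11.2%), all near Il2ra (3 of 9), Ctla4 (3 of 17), Icos (3 of 22) and Itgae (1 of 3), which activated T cells share. Foxp3, the lineage factor, had 0 of 1. The turned rule held at 6 of the 89 sites (6.74%). The Th1 list had 6 of 80 (7.50%), with Ifng at 1 of 5, while 14 (17.5%) passed the turned rule. The Th2 list had 4 members among 52 sites (7.69%) and 5 sites (9.62%) of the turned rule. A site 808 bp from Il5, a Th2 cytokine gene (11:53719786-53719986), was one of the stronger members of these lists. It had 97.8 and 93.3 in KO acetate and 99.3 and 103 in WT acetate, against 240, 199 and 210 in KO untreated and 262, 298 and 145 in WT untreated. Genes of inhibitory receptors and exhaustion had 3 of 65 (4.62%), at Btla, Cd6 and Tox, and 10 sites of that list (15.4%) passed the turned rule. The weak Tox site had 11.9 and 25.6 in KO acetate and 19.9 and 15.8 in WT acetate, against 89.5, 35.0 and 77.2 in KO untreated and 48.1, 68.5 and 50.1 in WT untreated.

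Among metabolic genes, the list of pyruvate dehydrogenase and the TCA cycle had 10 members among 66 sites (15.2%), in 7 of 23 genes, and 3 sites of the turned rule. Pdp1, a phosphatase that activates pyruvate dehydrogenase, held 2 of 8, and Pdk1, a kinase that inhibits it, 1 of 2. Cs, which encodes citrate synthase, had 1 of 5 (10:128344995-128345195), with 573 and 549 in KO acetate and 559 and 555 in WT acetate, against 802, 794 and 846 in KO untreated and 679, 634 and 646 in WT untreated. As deposited 3 of these 10 members were below 0 in KO and all 10 in WT. Citrate, acetyl-CoA and lipid synthesis genes had 7 of 62 (11.3%), while 9 (14.5%) passed the turned rule. Among the genes with members were Elovl6 (3 of 10) and the sterol-responsive factors Srebf1 (1 of 5) and Srebf2 (2 of 8). As deposited 0 of the 7 were below 0 in KO. Acetate transport and sensing genes had 0 of 13, with 2 sites of the turned rule. Glycolysis genes had 4 of 62 (6.45%), 1 each at Slc2a1, Slc2a3, Pfkfb3 and Aldoa, with 3 sites of the turned rule.

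Histone acetyltransferases write the acetyl mark and deacetylases remove it. Acetyltransferase genes had 3 of 41 sites (7.32%), 1 each at Kat2b, Kat6a and Kat6b, and deacetylase genes 5 of 72 (6.94%), at Hdac4, Hdac5 and Hdac7. Stress response and amino acid supply genes had 5 of 40 (12.5%), and cell cycle genes 6 of 66 (9.09%). Markers of other cells were sparse in the table. B cell marker genes had 1 member among 20 sites, myeloid genes 0 of 15, and CD8 T cell and NK cell genes 0 of 18. There was no site within 50 kb of Cd79a, Ms4a1, Csf1r, Lyz2, Ncr1, Cd8a or Cd8b1 as nearest gene, and since the table was selected this says nothing of their level.

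A list of interferon-inducible genes, added after the values were seen, had 18 members among 113 sites (15.9%), in 14 of 34 genes, and 4 sites of the turned rule. Immunity-related GTPase genes held members at Igtp (2 of 2 sites), Gm12250 (1 of 1), Irgm2 (1 of 7) and Ifi47 (1 of 8). Guanylate-binding protein genes held them at Gbp8 (3 of 4), Gbp4 (1 of 2) and Gbp5 (1 of 5). The rest were at Irf1 (2 of 7), a factor induced by interferon, and 1 each at Slfn1, Psmb9, Socs1, Samhd1, Parp9 and Parp14. Nlrc5, a factor for MHC class I genes, had 0 of 7. At the Igtp promoter site printed above (11:58199437-58199637) scaled signal was 173 and 123 in KO acetate and 196 and 167 in WT acetate, against 274, 307 and 306 in KO untreated and 335, 295 and 293 in WT untreated. At the Irgm2 promoter site it was 120 and 137 in KO acetate and 127 and 112 in WT acetate, against 194, 199 and 212 in KO untreated and 225, 171 and 187 in WT untreated. As deposited, 8 of the 18 were below 0 in KO and all 18 in WT, and 2 sites near Gbp8 were among those called higher in untreated KO.

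Motif counts in promoters were also made after the values were seen, over the 250 bases before each start and with no window on chromosome 18. On either strand, the ISRE letters GAAANNGAAA stood in 18 of the 375 promoter windows that a member overlapped (4.80%), in 2.26% of the 7614 windows that any site overlapped, in 1 of the 144 windows that a site of the turned rule overlapped (0.694%), and in 2.98% of all 32851 windows. The interferon-gamma activated sequence (GAS) letters TTCNNNGAA stood in 11.2%, 5.90%, 1.39% and 7.02% of the same 4 sets. The CCAAT box, CCAATC, stood in 28.0%, 18.2%, 11.8% and 14.6%. The AP-1 letters TGANTCA stood in 7.47%, 4.18%, 19.4% and 6.75%, and the ETS letters CCGGAAG in 14.7%, 17.9%, 3.47% and 6.91%. TCF/LEF letters, CTTTGAA, stood in 4.80%, 2.82%, 2.78% and 4.46%, and RUNX letters, TGTGGTT, in 5.87%, 3.39%, 4.86% and 4.40%. CRE, E-box and NRF1 letters stood in 1.87%, 10.1% and 1.87% with members, beside 3.57%, 11.1% and 2.06% with any site. Besides the 4 printed, windows with ISRE letters included those of Ppox, Qars, Vamp1 and Selenop. The letters lay inside the member site at Ppox and outside it at Qars, Vamp1 and Selenop. Windows were counted whether or not the letters lay inside a site. The GC box GGGCGGG stood in 25.3% with members, 47.1% with any site, 40.3% with sites of the turned rule and 23.4% of all windows. Base composition also differed between the sets. Median GC was 52.8% with members, 61.6% with any site, 58.2% with sites of the turned rule and 52.4% over all windows. The part of base composition in the motif shares was not tested, a window may hold several motifs, and neighbouring windows may share bases.

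Member sites lay more in gene bodies and less at gene ends than the table. Gene ends, within 1 kb of either end of a protein-coding gene, held 578 members, 15.7% (95% Wilson interval 14.6 to 16.9), beside 24.8% of all sites and 9.11% of the sites of the turned rule. Gene bodies held 50.7%, beside 42.4% and 45.7%. Sites 1 to 50 kb from a gene made 25.2%, beside 24.8% and 32.3%, and sites beyond 50 kb 8.43%, beside 8.10% and 12.8%. Neighbouring sites are not independent, so the interval covers counting error only. Among gene-end sites 5.88% were members, against 11.1% in gene bodies.

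The share of members also moved with mean signal. From the lowest to the highest of 5 equal classes of mean signal it was 5.87, 9.13, 10.2, 10.5 and 10.7%, while that of the turned rule was 10.3, 10.4, 10.1, 7.38 and 2.24%. In gene bodies it ran from 6.39% in the lowest class to 15.8% in the highest, and 1 to 50 kb from genes from 4.80 to 17.3%. At gene ends it was 5.94% in the lowest class, 9.95% in the next and 5.54% in the highest, where the turned rule held at 0.693%. The median mean signal was 162 at members, 137 over all sites and 99.8 at sites of the turned rule.

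**Figure D4:**
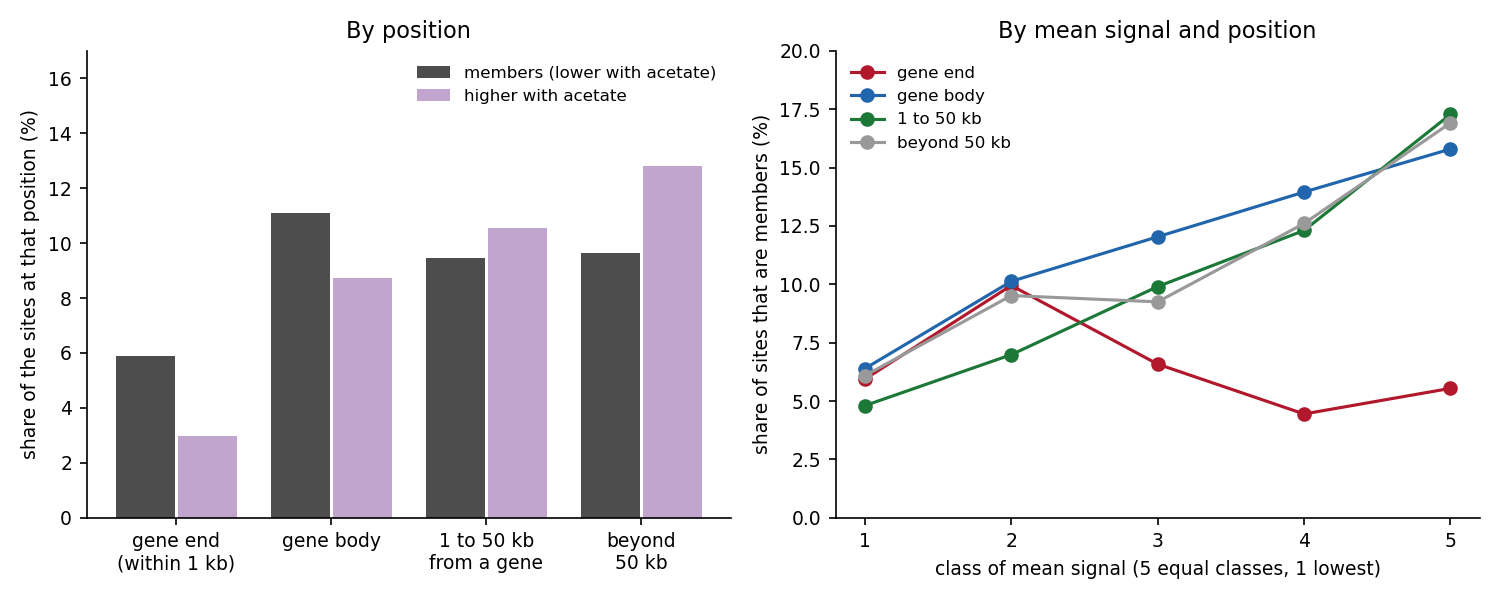
Left, the share (%) of sites at each position that were members or passed the turned rule, with bars from 0. Right, the share (%) that were members by class of mean signal (5 equal classes), 1 line per position: gene bodies and sites away from genes climb to 15.8 to 17.3% in the highest class, while gene ends stand at 5.54% there. Membership is on scaled values, and as deposited the KO direction is lost over members (0.01).

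By chromosome, members made 7.91 to 11.6% of the sites of each autosome, with chromosome 15 the highest, and 5.94% of the 640 sites on X. Members also lay near one another. Of 2730 members with another site within 10 kb, the nearest was a member for 430 (15.8%) and passed the turned rule for 120 (4.40%). Over all 27539 sites with such a neighbour, these shares were 9.92% and 8.31%. Sites of the turned rule lay near one another too: for 489 of 2285 (21.4%) the nearest site also passed the turned rule.

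The members were spread over 2460 of 12221 genes with a site, 1878 of them with a single member. At 28 genes there were 5 or more. The most were at Ets1, a transcription factor of lymphocyte development whose loss leads to excess Th17 cells in mice, with 13 of 48 sites (27.1%) and 0 of the turned rule. Bach2 followed with 10 of 63, then Emsy with 8 of 15, Tnrc6b, a scaffold of microRNA silencing, with 8 of 26, Maml2, a Notch coactivator, with 8 of 38, and Ankrd11, a chromatin regulator that recruits deacetylases, with 7 of 13. These counts were not adjusted for the number of sites a gene has.

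At Ets1 the 13 members reached over 152 kb (9:32591807-32743950). Their median difference was -0.53 in KO and -0.46 in WT, and the 35 other sites had -0.11 in KO and -0.24 in WT. The strongest in KO was a gene-body site (9:32723108-32723308) with 365 and 414 in KO acetate and 420 and 404 in WT acetate, against 765, 846 and 816 in KO untreated and 686, 751 and 575 in WT untreated. All 4 acetate libraries lay close together there. As deposited, 5 of the 13 were below 0 in KO and all 13 in WT. At Bach2 a gene-body site (4:32291397-32291597) averaged 496 ± 7.12 in KO acetate and 533 ± 5.29 in WT acetate (SD, n = 2 each), against 1065 ± 105 in KO untreated and 892 ± 42.7 in WT untreated (SD, n = 3 each). As deposited, 4 of the 10 Bach2 members were below 0 in KO.

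The Emsy members differed from those of Ets1 and Bach2 in their spacing. All 8 lay within 31.3 kb (7:98555299-98586596), on 1 side of the gene body and at its end, with a median of -0.86 in KO and -1.26 in WT. One of them (7:98563048-98563248) had 127 and 202 in KO acetate and 144 and 113 in WT acetate, against 330, 338 and 292 in KO untreated and 384, 353 and 237 in WT untreated. The 7 other Emsy sites had medians of -0.48 in KO and -0.47 in WT. As deposited 7 of the 8 members were still below 0 in KO, and all 8 in WT. None of the members of these 3 genes but the Emsy site named before was called for genotype in untreated cells.

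**Figure D5:**
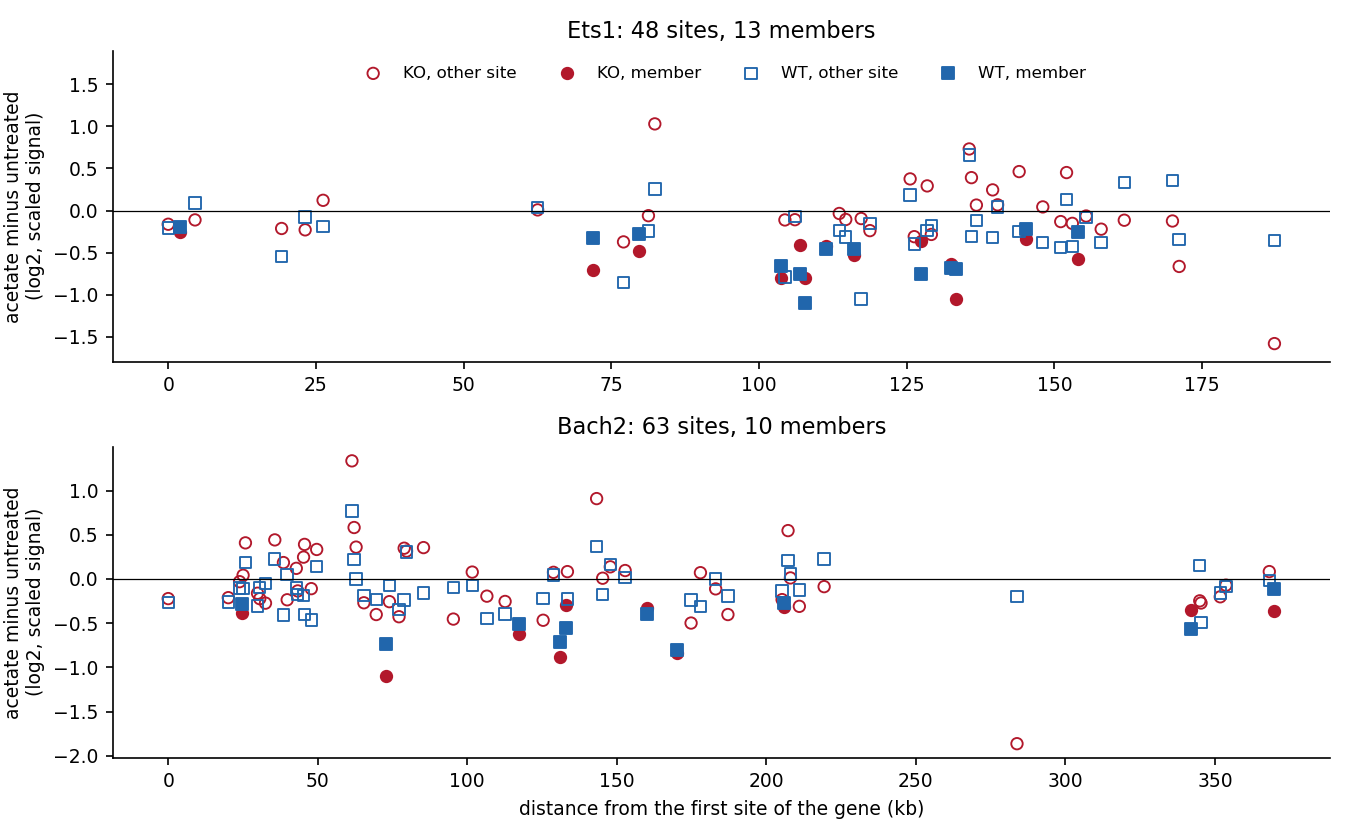
Acetate minus untreated difference (y axis, log2 of scaled signal) at each site of Ets1 (top) and Bach2 (bottom), against distance from the first site of the gene in kb (x axis). Circles are KO and squares WT, filled at members and open at other sites, and members lie among other sites on both sides of 0, of which 19 of 35 at Ets1 and 25 of 53 at Bach2 are below 0 in both genotypes. In KO some other sites of each gene are lower than most of its members. As deposited, 5 of 13 Ets1 members and 4 of 10 Bach2 members are below 0 in KO.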

How the data were processed

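ATAC-seq of 10 libraries was used, with 39657 sites on GRCm38 and 1 value per library. The deposited values are signal: the authors divided the reads of each site by a single factor for each library, whose making the sources used here do not state. All values (100%) were whole multiples of 1 step per library to within 0.001 reads, and depth was taken back from that step. A second estimate, which starts from the smallest value above 0 in a library, did not hold in 4 of 10 libraries, where that value was 2 or 4 reads. In WT untreated 2 it held, but the step was 1.00, too near a round number to accept. Per the submitters' processing notes, the tools named, with no role stated, were BWA 0.7.16a, deepTools 3.5.1, DESeq, DESeq2, DiffBind 3.6.1, FastQC 0.11.5, Genrich and Picard 2.10.9.

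Each library was divided by its median over sites and multiplied by the geometric mean of the 10 medians. Tests used log2(scaled signal + 1), R 4.3.3 and limma 3.58.1 with a trended, robust prior, 4 group means in 1 model of all libraries, no block and no filter, and Benjamini-Hochberg adjustment over all sites. The fit was tested on simulated data. Tables and figures were made with pandas 2.3.3, numpy 2.4.6, matplotlib 3.10.9 and scipy 1.17.1 under Python 3.11.15. Sites were given the nearest protein-coding gene body within 50 kb and promoter sequences from RefSeq (GRCm38.p6). WT untreated 4 and KO acetate 3 are numbered after their columns, since no sample title lists these numbers, and were placed by group.

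The member sites, the 18 gene lists, the tests and the rule for named genes were chosen with earlier results of these data known. Named were the 8 strongest members of at least median signal, the 6 genes with most members, up to 3 members per list of highest signal, up to 4 per tested contrast and direction of smallest adjusted p, the sites nearest the rule's threshold, 4 promoters and fixed marker loci. The interferon list, the 11 motifs and further promoters were added after the data were seen. Other scalings, a pseudocount of 5, a filter at a mean of 20, a replicate block and leaving out each library were tried. Some items under these rules are not reported here.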

Additional observations from a re-analysis of the deposited data

Results flagged for a closer look

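The acetate difference itself differed between genotypes at 108 members by the limma interaction test, 2 positive (0.0544%, beside 0.27% of all sites) and 106 negative (2.88%, beside 6.33%). Both shares lie below those of the whole table, and the interaction is made from the values that chose the members. The named ones were Tlr5 (1.04), Gbp8 (-1.96), Usp34 (-2.57), Mknk1 (-1.91) and Aadacl2fm2 (-1.69), as log2 differences, KO first. The 106 negative ones are sites where the 3 untreated KO libraries stand above the other 7.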

How the results depend on the processing

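With the values as deposited 424 sites passed the rule, the KO acetate difference at members turned to 0.014, 3435 members were called lower in untreated KO, and the interaction was called higher at 272 and lower at 49. The KO difference was -0.52 with total signal and -0.64 with cyclic loess, and the WT difference was -0.47 against WT untreated 4 alone. Median-of-ratios left 5 and cyclic loess 3 members called lower in untreated KO, and the positive interaction calls were 0 with median-of-ratios, total signal and cyclic loess. Within ATAC1 libraries alone, 246 members were called higher and 200 lower, beside 11.6% and 11.5% of all sites. With a gap of at least 1.2 times, 1022 members remained, of which 9.98% lay at gene ends, 57.2% in gene bodies, 22.5% at 1 to 50 kb and 10.3% beyond. With gene ends at 500 bp the shares were 11.1%, 53.4% and 27.1%.

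Leaving out 1 library in turn gave 3774 to 4898 sites under the rule, 134 to 190 members called higher and 2 to 102 called lower in untreated KO, 0 to 15 positive and 66 to 117 negative interaction calls, and 0 to 1 genotype call with acetate, the 1 without WT acetate 2. The most positive interaction calls, 15, and the 102 lower calls came without WT untreated 4, and 10 positive calls without WT acetate 2. The replicate block gave 158 members called higher, 93 called lower, and 18 positive and 114 negative interaction calls. Over 10 same-numbered pairs the deviations correlated at -0.12 to 0.33, with 1 above 0.1, so the numbers were not taken to pair libraries. For single sites, 211 alternatives kept the call and 18 lost it, all at Emsy, Map6 and Tlr5, and none changed sign. An edgeR test on reads taken back from the values was planned and not run. In 5 libraries a second estimate of the step did not hold or the step was too near a round number. The causes of these shifts were not tested.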
